A study of Homo sapiens with 31 samples.

Results

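Ribosome footprints and mRNA of 8 genes of growth, cell division and survival were followed in a human cell line with a knockout of EIF4A1 or of EIF4A2, which encode close paralogs of the helicase eIF4A. The genes have been reported elsewhere to depend on eIF4A for their translation: MYC, CCND1, CCND3, CCNE1, CDK6, ODC1, MCL1 and BIRC5. They were taken by name and not by any measured value, but the list was chosen with earlier results of these data known. Each was followed through 1 coding transcript, out of 35500 transcripts left when 1 was kept per locus. The transcripts were ENST00000621592.7 for MYC, ENST00000227507.2 for CCND1, ENST00000372991.8 for CCND3, ENST00000262643.8 for CCNE1, ENST00000265734.8 for CDK6, ENST00000234111.9 for ODC1, ENST00000369026.3 for MCL1 and ENST00000350051.8 for BIRC5. For all 8, the deposited length equalled the protein length less 9 codons. All 8 passed the filter on low counts in every fit, with 39 to 1479 counts per profiling library, 228 to 10960 per RNA-seq library and 141 to 12801 per pulldown or input library.

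The series held 31 libraries of HEK293 T-REx, a human embryonic kidney line that carries adenoviral E1 genes and a repressor for inducible transgenes. Ribosome profiling, which counts the mRNA fragments protected by ribosomes, covered naive, EIF4A1 KO and EIF4A2 KO cells. Each genotype had 2 libraries with DMSO and 1 each after 30 min of PP242 at 1 µM and 10 µM. PP242 blocks the kinase mTOR at its active site. RNA-seq covered naive and EIF4A1 KO cells with no drug named (2 libraries each). RNA of EIF4A2 KO cells, and RNA after PP242, were not analysed here. In RNA pulldown-seq, cells expressing SBP-eIF4A1 or SBP-eIF4A2, a streptavidin-binding peptide fused to either paralog, gave 2 inputs and 2 bead eluates each. A second pulldown set used SBP-eIF4A1 cells 72 h after control siRNA (2 inputs, 2 eluates) or LARP1 siRNA (2 inputs, 1 eluate). The labels do not say whether a knockout is 1 clone, or whether replicates are separate cultures, so p-values measure only the spread between these libraries. In the sample list, the RNA-seq, EIF4A2 KO and SBP-eIF4A2 libraries stand apart from the naive and EIF4A1 KO profiling libraries and the SBP-eIF4A1 libraries. The labels name no batch, and a difference in handling cannot be told apart from genotype, paralog or assay in comparisons between them. Whether mRNA and footprints came from the same cultures is not said either. An eluate of cells without a tag was not analysed here, so enrichment was read against input only.

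eIF4A is the RNA helicase of the cap-binding complex eIF4F: it unwinds structure in the 5′ leader so that the small ribosomal subunit can load and scan. EIF4A1 encodes the main paralog of growing cells and EIF4A2 a close relative. Long or structured leaders are held to need the helicase most, and mRNAs of growth regulators are the usual examples. Among the effects of blocking mTORC1, a complex of mTOR, the RNA-binding protein LARP1 holds back mRNAs that begin with a 5′ terminal oligopyrimidine (TOP) tract. These are chiefly mRNAs of ribosomal proteins and elongation factors. Transcripts of 6 such genes (RPLP0, RPL3, RPS6, RPS3, EEF1A1, EEF2) served as a reference for the response to PP242.

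In assembly GRCh38.p14, 7 of the genes lie at chr11:69641156-69654474 (CCND1), chr6:41934933-42050035 (CCND3), chr19:29811991-29824312 (CCNE1), chr7:92604921-92836573 (CDK6), chr2:10439968-10448327 (ODC1), chr1:150574558-150579610 (MCL1) and chr17:78214253-78225635 (BIRC5). The RefSeq start-site table of that assembly matched 4 of the 8: CCND3, CCNE1, CDK6 and ODC1. The first 30 bases from an annotated start are shown for ODC1, whose footprints per mRNA changed most in the knockout, for CCND3 and CDK6 beside it, and for 2 TOP mRNAs as the contrast. They are in mRNA sense, and capitals mark either a pyrimidine run that opens with C at the first base or a run of GCC triplets.
ODC1 start 1: gtcagtccctcctgtaGCCGCCGCCGCCgc
ODC1 start 2: ggagacacgtggtcgccgagcgggccacga
CCND3 start 2: gtcagggaagcggcgcgcgcgcgcgggcgg
CCND3 start 3: CTCTTCCTgccaagtagctcagagatggga
CDK6 start 1: gtctgattacctgctccgcgaggccgcgga
RPLP0: CCTTCTCTCgccaggcgtcctcgtggaagg
EEF2: CTCTTCCgccgtcgtcgccgccatcctcgg
In order, they lie on the minus strand at chr2:10448298-10448327, chr2:10447983-10448012, chr6:41941779-41941808, chr6:41939176-41939205, chr7:92836544-92836573, chr12:120201082-120201111 and chr19:3985434-3985463. The leader from the first ODC1 start held 4 GCC triplets in a row. Such a run (GCCGCCGCCGCC or its reverse complement GGCGGCGGCGGC) was present in the first 50 bases after 0.968% of 35116 annotated starts, and after 1 of the 8 starts of these 4 genes. The third CCND3 start opened with a pyrimidine run of 8 bases that began with C. An opening of C and at least 4 more C or T was found at 4.07% of all annotated starts. Which start the cells used was not measured, and no match is a measured site.

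The libraries were first checked against their labels. Total counts over the transcripts kept were 2514370 to 6418875 in profiling, 19704621 to 21628957 in RNA-seq and 11889029 to 17641180 in pulldown libraries. Levels below are CPM, a transcript's counts relative to those of its library, scaled by TMM factors (edgeR's trimmed mean of M values) within an experiment. EIF4A1 footprints were 2604 and 2696 CPM in naive and 512 and 601 in EIF4A1 KO cells with DMSO, and its mRNA 2071 and 2058 against 943 and 937. The targeted transcript was thus lower but not absent in the EIF4A1 KO. EIF4A2 footprints were 161 and 133 CPM in naive, 746 and 714 in EIF4A1 KO and 61.5 and 62.3 in EIF4A2 KO cells. The EIF4A1 KO libraries therefore had 4.99-fold more EIF4A2 footprints than naive ones (log2 2.32 ± 0.07, adjusted p = 1.28e-62, edgeR). Loss of EIF4A1 and this higher EIF4A2 cannot be told apart in the comparisons below. How reads that match both paralogs were counted is not given in the sources used here.

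A single library stood apart from its label. The library labelled siLARP1 input replicate 2, said to be SBP-eIF4A1 cells, had 1731 EIF4A1 and 1002 EIF4A2 CPM, scaled by its library total. The other 5 SBP-eIF4A1 inputs had 2913 to 3120.4 and 276 to 341. The 2 SBP-eIF4A2 inputs had 1852 and 1890.2 for EIF4A1, and 988 and 1003 for EIF4A2. Both of its paralog levels lay nearer to the SBP-eIF4A2 inputs than to any SBP-eIF4A1 input. LARP1 itself was low in both siLARP1 inputs (94.8 and 76.9 CPM against 228 and 222 in siControl inputs; -1.39 ± 0.18, adjusted p = 2.18e-05, edgeR). The members' values for LARP1 siRNA are given below with that library and without it.

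In naive cells, ODC1 was the most abundant of the 8 mRNAs per coding length. ODC1, ornithine decarboxylase, makes putrescine, the first polyamine. Its RNA level was 99.7 CPM per 100 codons, followed by BIRC5 (62.5), MYC (25.8), MCL1 (25.3), CCNE1 (15.9), CCND1 (14.9), CCND3 (9.39) and CDK6 (5.60). The 2 libraries of MYC and MCL1 overlapped (24.2 to 27.3 and 24.0 to 26.5), as did those of CCNE1 and CCND1, while the other neighbours did not. By footprints per 100 codons, BIRC5 led (80.9 CPM), and ODC1 came second (53.9). MYC (38.5), MCL1 (34.3), CCND1 (25.2) and CCNE1 (14.2) followed. CCND3 (12.1) and CDK6 (11.6) were lowest and overlapped between libraries.

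Footprints over mRNA, on the log2 scale and centred on the median of 18471 transcripts, give a translation efficiency for naive cells. CDK6, a kinase that drives G1 with D cyclins, had the highest of the 8 (1.00, the 86.8 percentile), and CCND1 the next (0.70). MYC (0.52), MCL1 (0.39), BIRC5 (0.32) and CCND3 (0.32) were above the median transcript. CCNE1 lay below it (-0.21). ODC1 was lowest (-0.94, the 14.7 percentile), so its abundant mRNA carried few footprints for its level. The median of the 8 was 0.35. No test was made, and each pairing of a profiling with an RNA-seq library left ODC1 and CCNE1 below 0 and the other 6 above it.

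**Figure D1:**
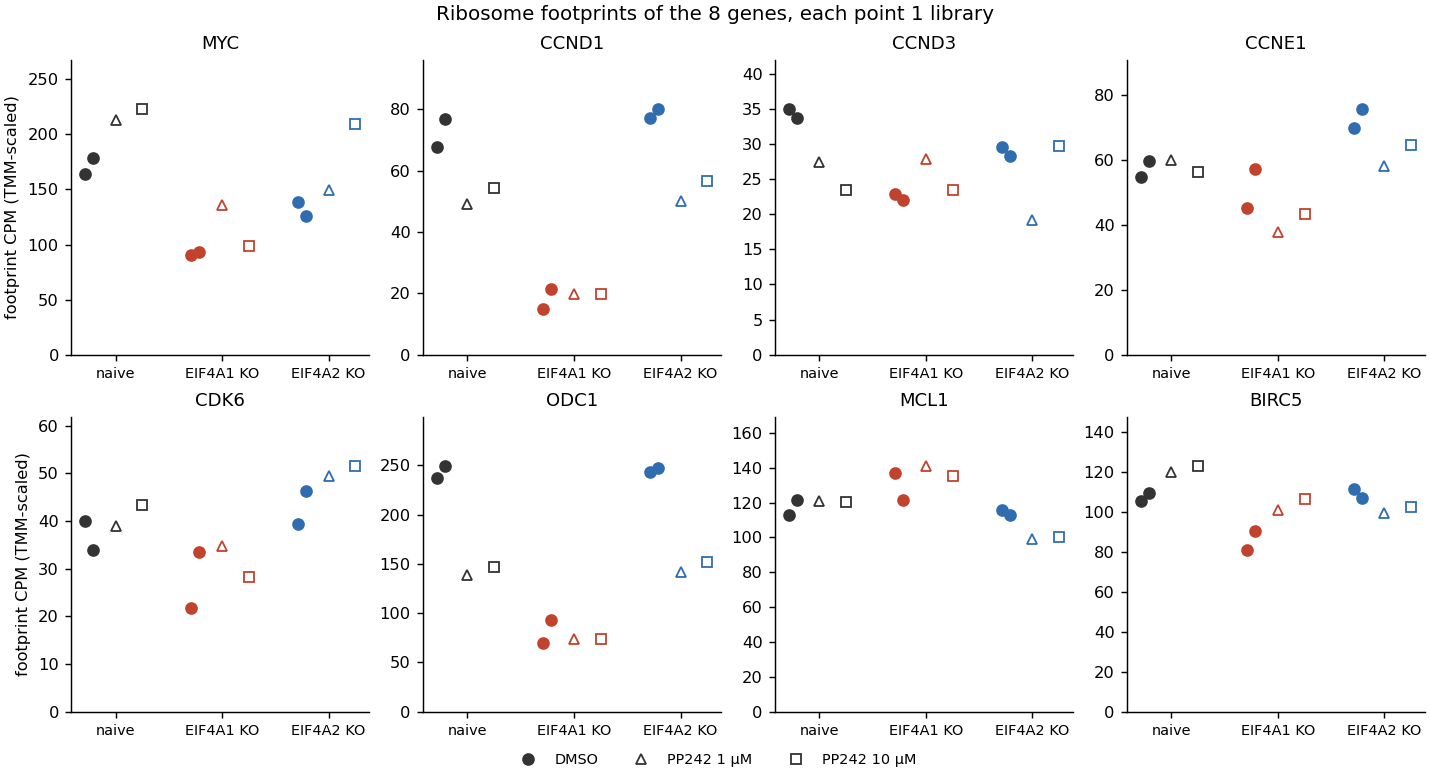
Footprint level (TMM-scaled CPM, linear axis from 0) of the 8 genes in each of the 12 profiling libraries, by genotype; filled circles are DMSO, open triangles PP242 at 1 µM and open squares PP242 at 10 µM. CCND1 and ODC1 sit lower in all 4 EIF4A1 KO libraries than in any of the other 8, and the PP242 libraries of naive and EIF4A2 KO cells sit below their DMSO libraries for both genes.

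In EIF4A1 KO cells the mRNA of 6 of the 8 genes was lower, MYC and CCND1 the most, and that of ODC1 and MCL1 was higher. MYC is the transcription factor of growth, and CCND1 encodes cyclin D1, the partner of CDK4 and CDK6 in G1. MYC mRNA was 108 and 122 CPM in the 2 naive libraries and 51.8 and 49.9 in the 2 EIF4A1 KO libraries. Both knockout libraries lay below both naive ones, a 2.25-fold lower level (log2 -1.17 ± 0.06, adjusted p = 1.99e-17, edgeR). CCND1 mRNA was 39.6 and 45.9 CPM against 22.0 and 20.2, also without overlap and 2.02-fold lower (log2 -1.01 ± 0.08, adjusted p = 4.26e-12). Smaller decreases were found for CDK6 (-0.56 ± 0.10), CCND3, cyclin D3 (-0.43 ± 0.09), CCNE1, the cyclin E1 of S-phase entry (-0.26 ± 0.06), and BIRC5 (-0.26 ± 0.05), with adjusted p from 5.29e-05 to 0.000453.

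ODC1 mRNA went the other way, from 453 and 448 CPM in naive to 540.2 and 535 in EIF4A1 KO cells (log2 0.25 ± 0.03, adjusted p = 7.37e-08). MCL1, a BCL2-family inhibitor of apoptosis, rose from 90.5 and 82.0 to 103 and 113 CPM (log2 0.32 ± 0.05, adjusted p = 9.48e-06). Both increases were under 1.3-fold, with no overlap between groups. All 8 members were called at an adjusted p under 0.05, beside 36.5% of 25745 transcripts. The 6 that fell stand beside 18.4% of transcripts called lower, and the 2 that rose beside 18.1% called higher. The members' median log2 change was -0.34, against -0.002 for all transcripts.

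Other genes of the same pathways moved in both directions. Of 12 other genes of G1 and S phase control, 7 rose and 2 fell (median 0.32). CDKN2C and CDKN1A, inhibitors of cyclin-dependent kinases, rose by log2 1.05 and 0.91, while CCND2, the third D cyclin, fell (-0.43). Of 13 apoptosis genes, 5 rose and 1 fell (median 0.27), led by the pore-forming BAX (0.95). Of 7 genes of G2 and M phase, 2 fell (median -0.04), AURKB, an Aurora kinase that acts with BIRC5, the most (-0.68). Of 7 polyamine genes, 6 fell and 1 rose (median -0.31), with SAT1, which acetylates polyamines, the lowest (-1.02). Of 3 MYC network genes tested (MYCN was too low), 1 rose (median 0.21), and of 6 TOP genes 4 rose and 1 fell (median 0.07).

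Footprints with DMSO were lower in EIF4A1 KO cells for 6 members, and for CCND1 and ODC1 by 3-fold or more. CCND1 footprints were 67.7 and 76.7 CPM in naive and 14.8 and 21.5 in EIF4A1 KO libraries, 4.01-fold lower (log2 -2.00 ± 0.15, adjusted p = 9.16e-23, edgeR). ODC1 footprints were 238 and 249 against 69.2 and 92.8 CPM, 3.02-fold lower (log2 -1.60 ± 0.09, adjusted p = 1.40e-33). MYC footprints were 164 and 178 against 90.1 and 93.6 CPM, 1.87-fold lower (log2 -0.90 ± 0.09, adjusted p = 1.85e-15). For these 3 genes every knockout library lay below both naive libraries. Among 5633 transcripts with a mean log2 CPM of 5 or more, CCND1 had the 7th lowest change and ODC1 the 12th. That floor was chosen after the values were seen. Over all 19845 transcripts tested, CCND1 ranked 135 and ODC1 270 from the lowest.

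CCND3 fell from 34.9 and 33.7 to 22.8 and 22.0 CPM (log2 -0.61 ± 0.16, adjusted p = 0.00254). CDK6 was at 40.0 and 33.9 CPM in naive and 21.7 and 33.6 in EIF4A1 KO cells (log2 -0.42 ± 0.16, adjusted p = 0.0396). The second knockout library came close to the lower naive one, and without the first knockout library the CDK6 change was -0.14 (adjusted p = 0.727). BIRC5, survivin, a subunit of the chromosomal passenger complex and an inhibitor of apoptosis, was at 105 and 109.8 against 81.0 and 90.3 CPM (log2 -0.33 ± 0.10, adjusted p = 0.00668). By DESeq2's Wald test CDK6 and BIRC5 had adjusted p of 0.214 and 0.0664. Without that same library the BIRC5 change was -0.26 (adjusted p = 0.188). CCNE1 (54.5 and 59.5 against 45.3 and 57.2 CPM, log2 -0.16 ± 0.12, adjusted p = 0.371) overlapped between the genotypes and did not pass the test. MCL1 was at 112.7 and 121.4 against 136.9 and 121.8 CPM (log2 0.14 ± 0.09, adjusted p = 0.252). Both knockout libraries lay above both naive ones, the second barely, and MCL1 did not pass either.

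These 6 of 8 calls, all lower, stand beside 22.7% of 19845 transcripts called in either direction and 11.9% called lower. The members' median was -0.52, against -0.012 over all transcripts. Of the other G1 and S genes, 5 of 12 rose and 3 fell. CCND2 fell (-1.15), and CDKN2C (1.10) and RB1, the retinoblastoma protein that D cyclins inactivate (0.99), rose. Of the polyamine genes, 5 of 7 fell and 1 rose (median -0.37). Of the apoptosis genes, 3 of 13 rose and 2 fell. Of the G2 and M genes, 1 of 7 rose and 3 fell, and of the TOP genes 4 of 6 fell (median -0.19).

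**Figure D2:**
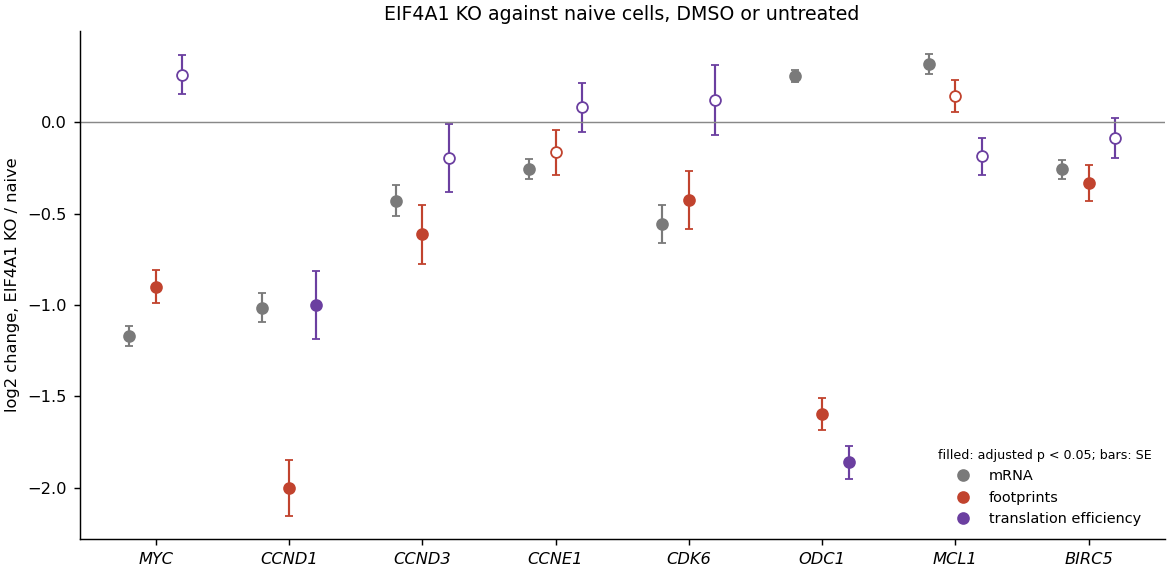
Log2 change from naive to EIF4A1 KO cells in mRNA (grey), DMSO footprints (red) and translation efficiency (purple) for the 8 genes; points are edgeR estimates, bars 1 SE, and filled points passed an adjusted p of 0.05. ODC1 combines higher mRNA with fewer footprints, CCND1 is lower in all 3 measures, and MYC is lower in mRNA and footprints with an efficiency change of 0.26 that did not pass.

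Footprints and mRNA were then joined in 1 fit of 8 libraries, whose interaction term is the change of translation efficiency (footprints per mRNA). The RNA-seq and profiling libraries of this fit stand apart in the sample list. ODC1 and CCND1 were the 2 members called, both lower, beside 9.49% of 25459 transcripts called and 5.74% called lower. ODC1 efficiency was 3.63-fold lower in EIF4A1 KO cells (log2 -1.86 ± 0.09, adjusted p = 1.82e-31): its mRNA rose while its footprints fell. Of 5929 transcripts with a mean log2 CPM of 5 or more, the same floor chosen afterwards, only 2 had a lower value. Over all 25459 transcripts tested, ODC1 ranked 776 from the lowest. CCND1 efficiency was lower by about as much as its mRNA (2-fold, SE 0.18 on the log2 scale, adjusted p = 3.10e-05). Both held under each alternative run, with log2 values from -2.13 to -1.71 for ODC1 and from -1.33 to -0.80 for CCND1.

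For the other 6 members no change of efficiency passed. The efficiency change of MYC was 0.26 ± 0.11, adjusted p = 0.119, so its lower footprints went with lower mRNA. Without the first naive RNA-seq library it was 0.36 (adjusted p = 0.0243), a higher efficiency. The changes of CCND3 (-0.19 ± 0.19), CCNE1 (0.08 ± 0.13), CDK6 (0.12 ± 0.19), MCL1 (-0.19 ± 0.10) and BIRC5 (-0.09 ± 0.11) did not pass. The members' median was -0.14, against -0.037 for all transcripts. Among the other lists, 5 of 12 G1 and S genes and 3 of 13 apoptosis genes fell in efficiency, and 1 of each rose. BAX (-0.89 ± 0.13) and BAK1 (-0.80 ± 0.22), the 2 pore-forming proteins that MCL1 restrains, were among those that fell, and BIRC2, an inhibitor of apoptosis, rose (0.62 ± 0.18). BBC3 had the lowest estimate (-1.88 ± 0.60) at footprint levels of only 0.761 and 2.07 CPM in the knockout. Of the polyamine genes, 1 of 7 rose, AZIN1, which frees ODC1 from its antizyme (0.38 ± 0.12), and 1 fell.

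In EIF4A2 KO cells, footprints of 2 members differed from naive cells, MYC lower and CCNE1 higher. MYC footprints were 139 and 126 CPM in EIF4A2 KO cells, below both naive libraries (164 and 178; log2 -0.38 ± 0.08, adjusted p = 0.000115). CCNE1 footprints were 69.8 and 75.5 CPM, above both naive libraries (54.5 and 59.5; log2 0.35 ± 0.10, adjusted p = 0.0155). Without the first naive library the CCNE1 change was 0.29 (adjusted p = 0.17), and without the second knockout library 0.28 (adjusted p = 0.234). ODC1 (243 and 247 CPM) and CCND1 (77.0 and 80.0 CPM) were close to their naive levels, with log2 changes of 0.01 ± 0.07 and 0.12 ± 0.10. By DESeq2's Wald test CCNE1 had an adjusted p of 0.175. The 2 of 8 calls stand beside 8.06% of all transcripts. The naive libraries are shared with the EIF4A1 KO comparison. Of the TOP genes, 6 of 6 fell in EIF4A2 KO cells (median -0.23), and CCND2 rose (0.56).

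The 2 knockouts were compared directly, though their libraries stand apart in the sample list. CCND1 was 4.35-fold lower with the EIF4A1 knockout than with the EIF4A2 knockout (log2 -2.12 ± 0.15, adjusted p = 5.37e-25) and ODC1 3.04-fold lower (log2 -1.60 ± 0.09, adjusted p = 8.35e-34). MYC (-0.52 ± 0.09), CDK6 (-0.65 ± 0.16), CCNE1 (-0.51 ± 0.12) and BIRC5 (-0.35 ± 0.10) were also lower, with adjusted p from 2.70e-06 to 0.00413. CCND3 (-0.37 ± 0.17, adjusted p = 0.113) and MCL1 (0.18 ± 0.09, adjusted p = 0.138) did not pass. The 6 of 8 calls, all lower, stand beside 22.6% of transcripts called and 11.6% called lower. Without the first EIF4A1 KO library, 3 calls were left, those of MYC, CCND1 and ODC1, and CDK6 (-0.36), CCNE1 (-0.35) and BIRC5 (-0.27) had adjusted p of 0.229, 0.125 and 0.154. Of the polyamine genes, 6 of 7 were lower in EIF4A1 KO cells (median -0.59), among them AMD1, which supplies the aminopropyl donor (-0.67).

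Relative to the other transcripts of a library, ODC1 and CCND1 footprints were lower with PP242 in naive cells, and MYC footprints higher. A change shared by all transcripts would not show in these levels. The response is the mean of the 2 doses against DMSO, from 1 library per dose. ODC1 went from 238 and 249 CPM with DMSO to 138 at 1 µM and 146 at 10 µM, 1.72-fold lower (log2 -0.78 ± 0.08, adjusted p = 1.58e-12, edgeR). CCND1 went from 67.7 and 76.7 to 49.0 at 1 µM and 54.5 at 10 µM, 1.41-fold lower (log2 -0.50 ± 0.11, adjusted p = 0.00122). MYC went from 164 and 178 to 213 at 1 µM and 223 at 10 µM, 1.27-fold higher (log2 0.34 ± 0.09, adjusted p = 0.00926). In each case both treated libraries lay on 1 side of both DMSO libraries, and the 1 µM library showed most of the change. The MYC call was lost without the first DMSO library (adjusted p = 0.118) or the 10 µM library (0.0756). The CCND1 call was lost without the second DMSO library (0.078) or the 1 µM library (0.118), and the MYC call also by DESeq2 (0.283). With PP242 as a slope over dose neither passed (0.303 for MYC and 0.256 for CCND1).

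The other 5 members had responses of -0.41 ± 0.15 (CCND3), 0.15 ± 0.14 (CDK6), 0.17 ± 0.09 (BIRC5), 0.04 ± 0.08 (MCL1) and 0.03 ± 0.11 (CCNE1) in naive cells, none past the test. The 3 of 8 calls stand beside 9.39% of 20506 transcripts. The TOP genes all fell (6 of 6), with a median log2 response of -2.29, against -0.78 for ODC1, the most responsive member. Of the 42 other growth and survival genes tested, 6 rose and 2 fell under TMM (median 0.07). SAT1 (0.60), BIRC2 (0.57) and INCENP, the scaffold that binds BIRC5 (0.36), were the highest called. Library totals shifted the responses of all transcripts upward. In naive cells 2766 of 20506 were then called higher, against 755 under TMM, with the median transcript at 0.165. Beside that, 5 of 13 apoptosis genes and 5 of 12 G1 and S genes rose, against 2 and 1 under TMM. None of either list fell under library totals. BIRC5 passed as higher there in naive (0.33) and EIF4A1 KO cells (0.43), and CDK6 in EIF4A2 KO cells (0.39).

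In EIF4A2 KO cells MYC, CCND1 and ODC1 were again the members called. ODC1 went from 243 and 247 to 142 at 1 µM and 152 at 10 µM (log2 -0.74 ± 0.08, adjusted p = 2.34e-12), and CCND1 from 77.0 and 80.0 to 50.1 at 1 µM and 56.5 at 10 µM (log2 -0.56 ± 0.11, adjusted p = 5.29e-05). MYC went from 139 and 126 to 149 at 1 µM and 209 at 10 µM (log2 0.45 ± 0.10, adjusted p = 0.000382). Without the 10 µM library the MYC value was 0.17 (adjusted p = 0.392). By DESeq2's Wald test MYC had an adjusted p of 0.13, and with PP242 as a slope over dose CCND1 was -0.27 (0.133). The 3 of 8 calls stand beside 11.7% of transcripts, and 6 of 6 TOP genes fell (median -2.52). In the test of the difference from naive cells, no member passed with edgeR (2 of 8 had an unadjusted p under 0.05) or with DESeq2, beside 0.0683% of transcripts called. The differences for ODC1, CCND1 and MYC were 0.04 ± 0.11, -0.06 ± 0.16 and 0.10 ± 0.13. CCNE1 (-0.24 ± 0.10), CCND3 (-0.23 ± 0.15), CDK6 (0.23 ± 0.12), MCL1 (-0.19 ± 0.08) and BIRC5 (-0.11 ± 0.08) did not pass in EIF4A2 KO cells, though CCND3 was -0.60 (adjusted p = 0.0332) without the 10 µM library.

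In EIF4A1 KO cells, no change of ODC1 or CCND1 with PP242 passed the test, and both were low with DMSO already. ODC1 was at 69.2 and 92.8 CPM with DMSO and 73.7 at 1 µM and 74.1 at 10 µM (log2 -0.13 ± 0.11, adjusted p = 0.577). CCND1 was at 14.8 and 21.5 with DMSO and 19.6 at 1 µM and 19.8 at 10 µM (log2 0.13 ± 0.19, adjusted p = 0.782). For both genes the treated libraries lay between the 2 DMSO libraries. CCNE1 was at 45.3 and 57.2 with DMSO and 37.8 at 1 µM and 43.4 at 10 µM, below both DMSO libraries (log2 -0.31 ± 0.13, adjusted p = 0.165). CCND3 (0.17 ± 0.18), CDK6 (0.18 ± 0.17) and MCL1 (0.09 ± 0.09) had small positive values that did not pass. MYC was at 90.1 and 93.6 with DMSO and 136 at 1 µM and 98.8 at 10 µM, above both DMSO libraries at each dose (log2 0.33 ± 0.12, adjusted p = 0.089). Under library totals in place of TMM, a choice made after seeing the data, MYC was 0.47 (adjusted p = 0.00321), and without the 10 µM library 0.56 (0.00174). No member passed with edgeR, beside 6.02% of transcripts called, with 3 of 8 at an unadjusted p under 0.05, and none passed with DESeq2 (2 of 8 unadjusted). The TOP genes fell, 6 of 6, with a median of -1.60.

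**Figure D3:**
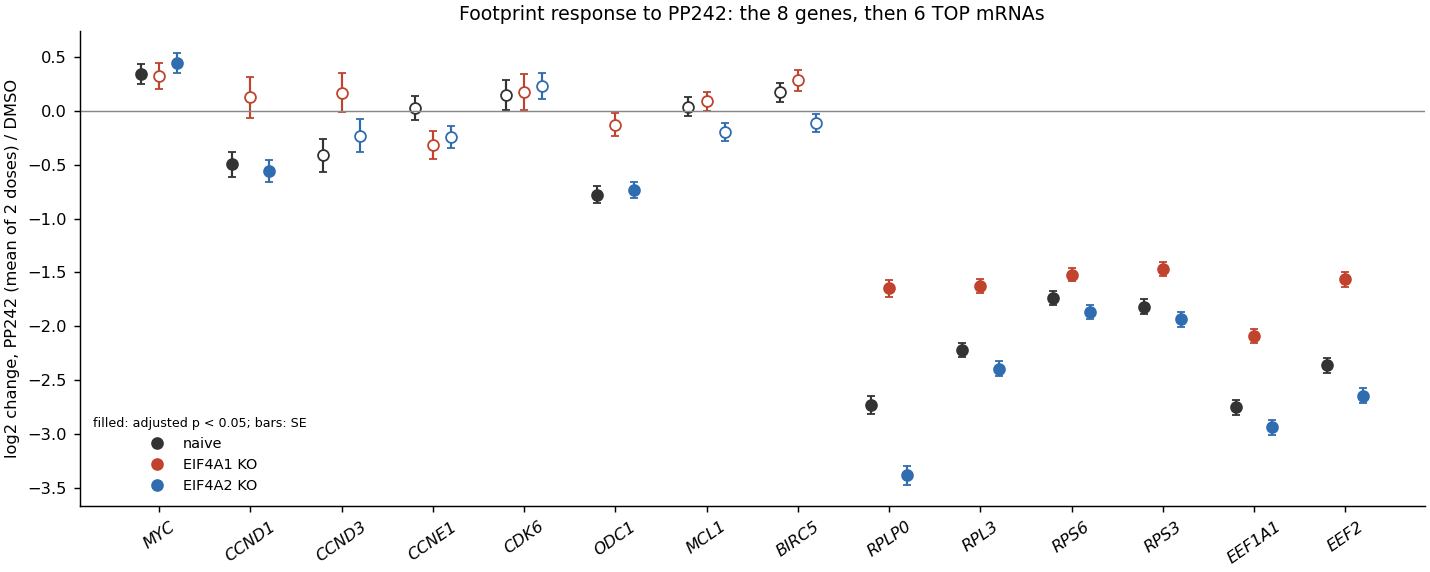
Log2 footprint response to PP242 (mean of the 1 µM and 10 µM libraries over DMSO) in naive, EIF4A1 KO and EIF4A2 KO cells for the 8 genes and, to their right, 6 TOP mRNAs; bars are 1 SE and filled points passed an adjusted p of 0.05. ODC1 and CCND1 lie below 0 in naive and EIF4A2 KO cells and near 0 in EIF4A1 KO cells, while the TOP mRNAs fall by more than 1.4 in each genotype.

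The response of ODC1 differed between genotypes. The EIF4A1 KO response exceeded the naive one by log2 0.65 ± 0.13 (adjusted p = 0.000432, edgeR), and the EIF4A2 KO one by 0.61 ± 0.13 (adjusted p = 0.000864). With PP242 as a slope over dose the differences were 0.35 (0.437) and 0.32 (0.532). Without the first EIF4A1 KO DMSO library, which had the lower ODC1 level, these differences were 0.45 (adjusted p = 0.0764) and 0.41 (0.122). For CCND1 the difference was 0.62 ± 0.22 (adjusted p = 0.0789) against naive, and 0.68 ± 0.21 (0.0401) against EIF4A2 KO cells, the latter lost without any 1 of 6 of the 8 libraries. Without the second EIF4A1 KO DMSO library the former was 0.90 (0.0403). BIRC5 responses were 0.29 ± 0.10 with the EIF4A1 knockout and -0.11 ± 0.08 with the EIF4A2 knockout, neither called under TMM, and differed by 0.40 ± 0.13 (adjusted p = 0.0483), a call lost without any 1 of the 8 libraries. These calls, 1 of 8 against naive and 3 of 8 against EIF4A2 KO cells, stand beside 6.06% and 6.22% of transcripts. The TOP genes fell less in EIF4A1 KO cells than in naive cells (5 of 6 passed, median difference 0.63) and than in EIF4A2 KO cells (6 of 6, 0.81). The EIF4A1 KO libraries enter both differences.

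In the pulldowns without siRNA, both tagged paralogs carried ODC1 and CCNE1 mRNA above input and CDK6 below it. In the eluate of SBP-eIF4A1, ODC1 was at 952 and 1039.6 CPM, against 426 and 448 in input, 2.28-fold higher (log2 1.19 ± 0.06, adjusted p = 5.85e-11). With SBP-eIF4A2 it was at 752 and 679.7 against 368 and 384 (log2 0.93 ± 0.06, adjusted p = 9.56e-10). CCNE1 was at 99.5 and 110.4 against 55.3 and 53.8 with SBP-eIF4A1 (log2 0.95 ± 0.07, adjusted p = 4.24e-09), and 111 and 107 against 64.7 and 66.3 with SBP-eIF4A2 (log2 0.73 ± 0.07, adjusted p = 4.31e-08). None of these eluates overlapped its inputs. CDK6 was depleted: 29.4 and 24.1 CPM against 51.0 and 50.6 with SBP-eIF4A1 (log2 -0.93 ± 0.14, adjusted p = 2.81e-05), and 14.3 and 22.0 against 26.6 and 24.2 with SBP-eIF4A2 (log2 -0.48 ± 0.15, adjusted p = 0.0102). The second CDK6 call was lost without the first SBP-eIF4A2 input (adjusted p = 0.0806) or under library totals (0.0933).

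BIRC5 differed most between the paralogs among the 8. It was at 185 and 180.5 CPM in the SBP-eIF4A1 eluate and 104 and 105 in its input (log2 0.80 ± 0.06, adjusted p = 5.07e-09). With SBP-eIF4A2 it was at 82.6 and 79.4 in the eluate and 79.8 and 85.3 in input, which overlapped (log2 -0.03 ± 0.06, adjusted p = 0.712). The difference between the enrichments was 0.83 ± 0.09 (adjusted p = 5.56e-06), called under every alternative run and 0.52 under library totals. CCND3 was enriched with SBP-eIF4A1 by 0.37 ± 0.10 (adjusted p = 0.00338), against -0.04 ± 0.09 with SBP-eIF4A2. Its first value was 0.31 (0.0598) without the first input and 0.30 (0.0616) without the second eluate. The difference of 0.41 ± 0.13 (adjusted p = 0.0478) was lost without any 1 of 7 of the 8 libraries. MYC (-0.06 ± 0.06 and -0.19 ± 0.06, the second called), CCND1 (-0.12 ± 0.08 and -0.05 ± 0.07) and MCL1 (0.14 ± 0.07 and 0.13 ± 0.07) had smaller values. These depend on the scaling: under library totals MYC was -0.18 (adjusted p = 0.0105) with SBP-eIF4A1 and -0.00 (0.945) with SBP-eIF4A2. CCND1 then passed as lower with SBP-eIF4A1 (-0.25, 0.0146), and MCL1 as higher with SBP-eIF4A2 (0.32, 0.00102). For ODC1 the difference between the paralogs was 0.26 ± 0.09, adjusted p = 0.0528. Over the alternative runs it went from -0.05 to 0.34, with adjusted p of up to 0.715. In edgeR it passed with no filter on low counts (0.0280) and with a replicate block (0.0255).

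Calls were common in these fits. The 5 members called with SBP-eIF4A1 stand beside 55.4% of 26601 transcripts, the 4 with SBP-eIF4A2 beside 59.8%, and the 2 that differed beside 15.7%. Scaling moved this last comparison as a whole: of all calls, 66.2% were higher with SBP-eIF4A1 under TMM and 16.7% under library totals, with the median transcript at 0.034 and -0.276. Under library totals, members called in that difference were BIRC5, higher, and CCND1 (-0.39) and CDK6 (-0.76), lower, and BIRC5 passed as enriched with SBP-eIF4A2 (0.16). Of the other lists, E2F1, which drives S-phase genes (1.79 and 1.90), and BAX (1.83 and 1.51) were the 2 most enriched genes with either paralog (log2 with SBP-eIF4A1 first). RB1 (-1.45 and -2.11) and CCNA2, cyclin A2 (-1.63 and -1.99), were the most depleted. The TOP genes had medians of 0.47 and -0.28 (4 of 6 enriched with SBP-eIF4A1, 1 of 6 with SBP-eIF4A2).

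**Figure D4:**
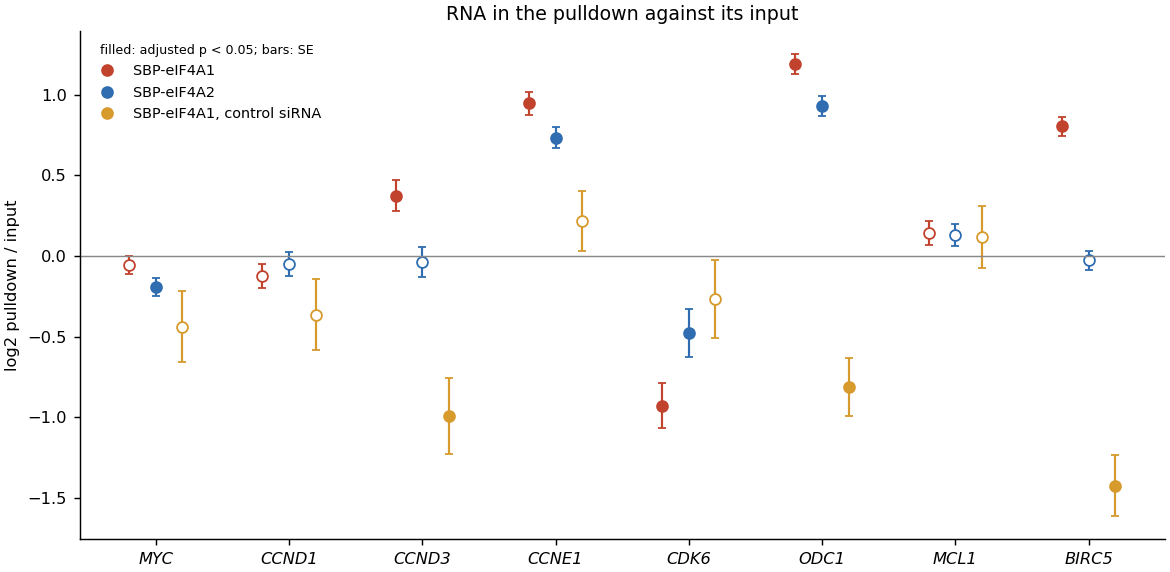
Log2 ratio of eluate to input for the 8 genes with SBP-eIF4A1 (red), SBP-eIF4A2 (blue) and SBP-eIF4A1 after control siRNA (yellow); bars are 1 SE and filled points passed an adjusted p of 0.05. ODC1, CCND3 and BIRC5 lie above 0 with SBP-eIF4A1 and below 0 in the separate experiment with control siRNA.

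The same tagged protein gave other values in the siRNA experiment. After control siRNA, ODC1 was at 284 and 279 CPM in the eluate and 487 and 502 in input, lower in both eluates (log2 -0.81 ± 0.18, adjusted p = 0.000207). BIRC5 was at 47.9 and 50.1 against 131 and 133 (log2 -1.42 ± 0.19, adjusted p = 2.57e-08), and CCND3 at 11.4 and 9.20 against 24.8 and 16.1 (log2 -0.99 ± 0.23, adjusted p = 0.000463). Without the first siControl input CCND3 was -0.64 (adjusted p = 0.0788). These 3 calls stand beside 49.3% of transcripts. Their SEs come from a fit that includes the siLARP1 input that stood apart from its label. This comparison was not recomputed without that library. A test in 1 fit of both experiments was added once their values were known. The enrichment differed for BIRC5 (-2.17 ± 0.14, adjusted p = 2.68e-08), ODC1 (-1.94 ± 0.13, adjusted p = 3.95e-08), CCND3 (-1.31 ± 0.25, adjusted p = 0.00051), CCNE1 (-0.67 ± 0.15, adjusted p = 0.00236) and CDK6 (0.72 ± 0.18, adjusted p = 0.00446), 5 of 8 beside 50.2% of transcripts. The siRNA and the experiment cannot be told apart.

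Scaling bears on the size of these values. Between TMM and library totals, the median transcript of the control siRNA comparison moved from 0.081 to 0.548, and the share of calls that were higher from 51.1% to 74.9%. Under library totals ODC1 was -0.34 (adjusted p = 0.086) and CCND3 -0.53 (0.0747), BIRC5 kept its call (-0.96), and CCNE1 (0.69) and MCL1 (0.59) passed as higher. For the difference between experiments the share of calls that were higher moved from 52.6% to 75.2%, and ODC1 (-1.41) and BIRC5 (-1.64) stayed lower. CCND3 (-0.79) and CDK6 (1.25) were called there too, but CCNE1 was not (-0.13, adjusted p = 0.451), and MCL1 was called as higher (0.57, 0.00563). Of the TOP genes, 6 of 6 were depleted after control siRNA under TMM and 5 of 6 under library totals (median -1.94 under TMM). LARP1 mRNA was at 482 and 481 CPM in those eluates, against 228 and 222 in their inputs. The cause of these shifts was not tested.

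In the input RNA of the siRNA experiment, 1 member passed the test, CCND1. It was at 35.8 and 35.1 CPM in the siControl inputs and 87.3 and 46.7 in the siLARP1 inputs (log2 0.92 ± 0.22, adjusted p = 0.0361). Both siLARP1 inputs were higher, but the first by far more than the second, the library whose paralog levels go against its label. Without that library the change was 1.30 (adjusted p = 0.0247), resting on 1 siLARP1 input. Without the first siLARP1 input it was 0.41 (0.399), and without either siControl input 0.93 (0.104) and 0.87 (0.378). MYC was at 173 and 172 CPM in siControl and 289.9 and 133 in siLARP1 inputs, 1 above and 1 below both controls (log2 0.30 ± 0.22, adjusted p = 0.642). BIRC5 (-0.40 ± 0.18), CDK6 (0.57 ± 0.24), CCNE1 (-0.29 ± 0.19), CCND3 (0.26 ± 0.23), MCL1 (0.13 ± 0.19) and ODC1 (-0.07 ± 0.18) did not pass either. Without the doubted library CDK6 was 1.03 (adjusted p = 0.0949), BIRC5 -0.39, MCL1 0.31, CCNE1 -0.16, ODC1 0.08 and CCND3 0.07, and CCND1 alone of the 8 passed. The MYC value was 0.75 without the doubted library and -0.36 without the other. The single call stands beside 0.517% of 26708 transcripts, 138 in all, of which 61.6% were higher under TMM and 97.6% under library totals.

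**Figure D5:**
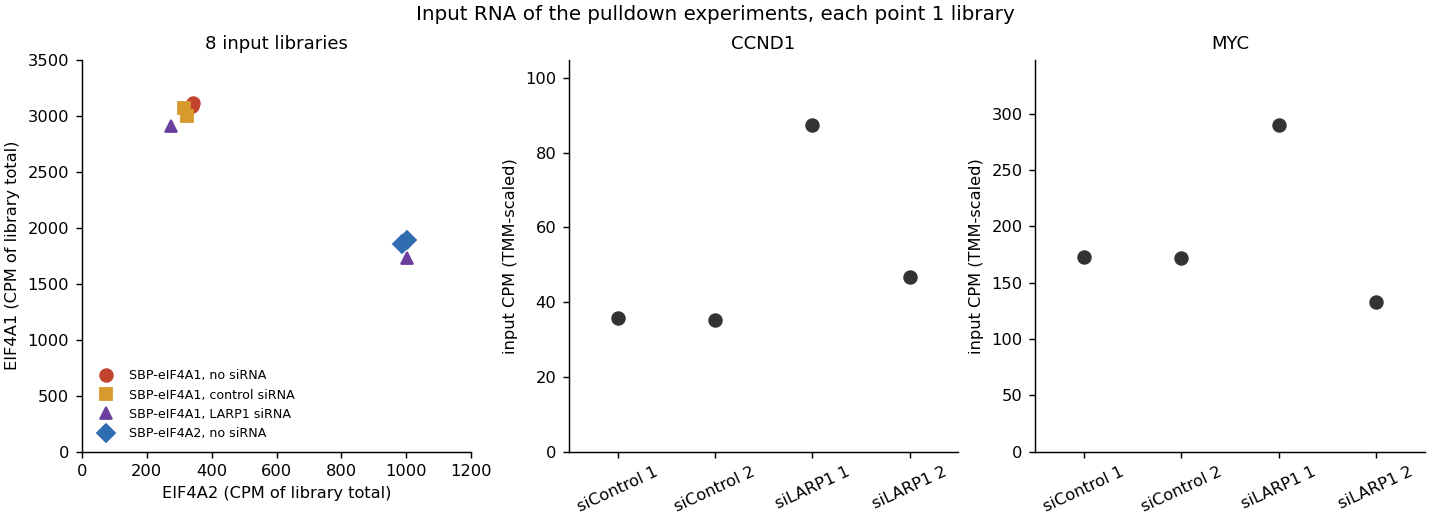
Input RNA of the pulldown experiments, each point 1 library: EIF4A1 against EIF4A2 (CPM by library total) in the 8 inputs, and CCND1 and MYC (TMM-scaled CPM) in the 4 siRNA inputs. A siLARP1 input labelled SBP-eIF4A1 lies with the 2 SBP-eIF4A2 inputs, and the 2 siLARP1 inputs differ in CCND1 and MYC.

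The enrichment on SBP-eIF4A1 was not shown to change with LARP1 siRNA for any member. In the single siLARP1 eluate, ODC1 was at 269.6 CPM, BIRC5 at 38.4, CCND1 at 38.9 and MYC at 171. The change of enrichment was 0.01 ± 0.28 for ODC1, 0.05 ± 0.29 for BIRC5, -0.42 ± 0.35 for CCND1, 0.13 ± 0.34 for MYC, -0.16 ± 0.29 for CCNE1, -0.11 ± 0.37 for CCND3, -0.09 ± 0.30 for MCL1 and -0.71 ± 0.38 for CDK6, the widest of the 8. Without the doubted input, ODC1 was at -0.14, CDK6 at -1.16, CCND1 at -0.80, MYC at -0.33, CCNE1 at -0.29, MCL1 at -0.28, CCND3 at 0.07 and BIRC5 at 0.04, and 0 of 8 passed. No member passed, with an unadjusted p under 0.05 for 0 of 8 by edgeR and by DESeq2. Over all 26708 transcripts, 0 were called by edgeR (0.0%; 837 had an unadjusted p under 0.05) and 0 by DESeq2. With 1 siLARP1 eluate the SEs of the 8 members were 0.28 to 0.38 on the log2 scale.

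Across the 12 profiling libraries, the members did not move as a block. The Pearson r of log2 CPM was 0.97 for CCND1 and ODC1, the highest of the 28 pairs, and -0.84 for CDK6 and MCL1, the lowest. MCL1 was negative with each of the other 7. Among 53 genes with at least 10 counts in each library, the closest to MYC was EIF5A, the factor that polyamine-derived hypusine activates (r = 0.87), to CDK6 AMD1 (0.86) and to CCNE1 CCND1 (0.82). MCL1 was closest to BAX (0.88), CCND3 to E2F1 (0.80) and BIRC5 to MNT, a repressor that competes with MYC (0.77). These are descriptions over 3 genotypes and 3 treatments, in which genes that differ by genotype correlate.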

How the data were processed

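The members and gene lists were chosen with earlier results of these data known. Per the submitters' processing notes, CASAVA 1.8, STAR 2.7.0a and hg38 were used; the counting tool, annotation release and strand setting are not given in the sources used here. The authors deposited, per library, raw counts for 227264 Ensembl transcripts, and another value, a length in codons, as judged from the values. As also judged from the values, a read counts in every transcript that contains it, so isoforms sharing exons cannot be told apart. Identical count rows were collapsed, and a row correlated at 0.9 or more with a kept one within 10 rows was dropped, leaving 35500. Listed transcripts were matched by length to known protein lengths, as RefSeq proteins were not used here.

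Tests used edgeR 4.0.16 in R 4.3.3 (TMM, filterByExpr, quasi-likelihood F test, two-sided, Benjamini-Hochberg over all transcripts tested; ± is SE) in 7 fits: RNA-seq, DMSO footprints, both together, all profiling, each pulldown set, and both SBP-eIF4A1 sets together. Alternatives were DESeq2 1.42.0, other scalings, filters and designs, and leaving out each library. The code was tested on simulated data. The text names all 8 members, the targeted genes, at most 3 called genes per list direction and comparison by size of change, and each member's closest listed gene.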

Additional observations from a re-analysis of the deposited data

Results flagged for a closer look

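The tests of a difference between groups singled out 11 values among the members. In the PP242 response, ODC1 differed between EIF4A1 KO and naive cells by log2 0.65 and between EIF4A1 KO and EIF4A2 KO cells by 0.61. CCND1 (0.68) and BIRC5 (0.40) differed between the 2 knockouts. Between the SBP-eIF4A1 and SBP-eIF4A2 pulldowns, the enrichment of BIRC5 (0.83) and CCND3 (0.41) differed. Between the SBP-eIF4A1 pulldowns with control siRNA and with no siRNA, the enrichment differed for BIRC5 (-2.17), ODC1 (-1.94), CCND3 (-1.31), CDK6 (0.72) and CCNE1 (-0.67). Each passed an adjusted p of 0.05 in edgeR's interaction contrast under TMM. Of all transcripts, 6.06% were called in the PP242 difference of EIF4A1 KO from naive cells and 6.22% in that between the knockouts. The shares were 15.7% between the paralogs' pulldowns and 50.2% for control siRNA against no siRNA, a test added once the values were known. No member passed in the PP242 difference of EIF4A2 KO from naive cells, beside 0.0683% of transcripts. Under library totals 3 did not pass: CCNE1 (-0.13, adjusted p = 0.451), CCND3 between the paralogs (0.10, 0.662) and BIRC5 between the knockouts' PP242 responses (0.38, 0.0624). In edgeR with PP242 as a slope over dose, the differences of ODC1 (0.437 and 0.532), CCND1 (0.542) and BIRC5 (0.511) did not pass. By DESeq2's Wald test CCND1 (0.0719) and BIRC5 (0.0948) between the knockouts and CCND3 between the paralogs (0.136) did not pass. The cause of none was tested.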

How the results depend on the processing

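Of 1752 recomputed member values, 1651 kept their side of the threshold, 73 lost a call, 27 gained one and 1 took the other sign with a call, BIRC5 in the SBP-eIF4A2 pulldown under library totals (0.16). The cause of the moves below was not tested. With DESeq2's Wald test, members called went from 6 to 4 for EIF4A1 KO footprints, from 2 to 1 for EIF4A2 KO footprints, from 3 to 2 for PP242 in naive and 3 to 2 in EIF4A2 KO cells, from 3 to 1 for the PP242 difference between the knockouts, and from 2 to 1 for the difference between the paralogs' pulldowns (also 1 with edgeR on DESeq2's size factors). The other 12 counts stayed as they were with that test. PP242 as a slope over a dose score left 1 call in naive cells and 0 and 0 in the differences of EIF4A1 KO from naive and from EIF4A2 KO cells. The PP242 response in EIF4A1 KO cells gained 1 with no filter on low counts, 1 with only its groups fitted and 2 with library totals.

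Leaving out each library gave 4 to 6 members called for EIF4A1 KO footprints, 1 to 2 for EIF4A2 KO footprints and 3 to 6 between the knockouts. For PP242 it gave 0 to 1 in EIF4A1 KO cells, 0 to 2 for EIF4A1 KO minus naive and 0 to 2 for EIF4A1 KO minus EIF4A2 KO. It gave 1 to 5 for the difference between the paralogs' pulldowns and 0 to 1 for siLARP1 inputs. The 5 came without the first SBP-eIF4A2 eluate, where CDK6 (-0.72), ODC1 (0.34) and CCNE1 (0.24) also passed. Where 1 library was left in a group, it was taken to vary like the other groups. The median baseline efficiency was 0.40 with the second naive profiling library alone.

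Shared replicate numbers were not taken as pairing, with 2 numbers per group. Deviations correlated at 0.47 between siControl inputs and siControl eluates, and from -0.11 to 0.090 between the other groups compared. A replicate block gave MYC a call in the enrichment difference of control siRNA from no siRNA (-0.32, adjusted p = 0.0248, edgeR). With a replicate block, members called in siLARP1 inputs went to 0 and CDK6 lost its EIF4A1 KO footprint call (-0.42, adjusted p = 0.0738); over all transcripts, calls went from 4508 to 4039 for EIF4A1 KO and 1599 to 1146 for EIF4A2 KO footprints. With the numbers crossed, a choice made after seeing the data, 1823 transcripts were called for EIF4A2 KO footprints and 367 for siLARP1 inputs, against 128 with the numbers as labelled and 138 without a block. Library totals, also chosen after seeing the data, shifted the median PP242 response by 0.16, 0.14 and 0.16 in naive, EIF4A1 KO and EIF4A2 KO cells, and the share of calls that rose from 39.2%, 38.6% and 39.1% to 80.6%, 82.0% and 78.3%. For efficiency that share went from 39.5% to 51.1%, and for SBP-eIF4A2 from 49.8% to 61.1%. CCND1, CCND3 and CDK6 had the fewest footprints, 39 at the lowest, which limits what their footprint comparisons can show.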
